A study of Mus musculus with 192 samples.

Results

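Bile acids are made, conjugated and carried by a small set of genes, and 10 of them were followed here, chosen by name from the 54752 genes of the deposited table. The members were the enzymes Cyp7a1, Cyp8b1, Cyp27a1, Cyp7b1 and Baat, the transporters Abcb11, Slc10a1 and Slc51b, and the nuclear receptors Nr0b2 and Nr1h4. All 10 had an entry in each of the 9 tissues. The study flew male C57BL/6 mice (C57BL/6J in its methods) to the International Space Station for about a month and asked what flight did with and without the transcription factor NRF2. There were 192 RNA-seq libraries from liver (written Liv), kidney (Kid), 2 fat depots (epididymal white, eWAT, and interscapular brown, iBAT), 2 bones of the skull (the temporal bone, TpB, and the mandible, MdB), the lymphoid organs spleen (Spl) and thymus (Thy), and brain (the cerebrum, Cbr). The 4 groups were WT mice on the ground (GC_WT), WT mice in flight (FL_WT), Nrf2KO mice on the ground (GC_KO) and Nrf2KO mice in flight (FL_KO), all with an age of 12 weeks in the labels. There were 6 mice in each group, of which 3 were measured in MdB and Kid. FL_KO mouse FL04, which had bled into the gut, was left out, so that FL_KO held 5 mice in most tissues, 3 in Kid and 2 in MdB.

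The Nrf2KO line lacks functional Nfe2l2 in every cell from conception, and the Nrf2KO mice were screened so that those with an intrahepatic shunt were not used. Flight mice were dissected in San Diego after splashdown and a round of behavioural tests, whereas the ground mice were housed in the same units at Tsukuba later in the year and ate another chow. Flight, food, site, season and the return to Earth cannot be told apart in any comparison of FL with GC mice. Thymus RNA was depleted of ribosomal RNA and the other tissues were read as poly(A) RNA. Library totals ran from 8007523 to 16308175 expected counts, with 14433209 to 15318155 in Liv and 13769210 to 14648004 in Kid. Nfe2l2 itself was lower in every Nrf2KO liver (13.07 to 24.1 TPM) than in every WT liver (34.83 to 66.15 TPM), and its differences passed the test on the ground (log2 difference -1.48, adjusted p = 4.77e-10) and in flight (adjusted p = 1.26e-09). Each tissue was bulk RNA, so fewer cells of a type and less RNA per cell cannot be told apart.

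Bile acids are built from cholesterol in hepatocytes. In the classical route CYP7A1 makes the first and rate-limiting hydroxylation and CYP8B1 adds the hydroxyl group that sets the share of cholic acid. In the alternative route CYP27A1 oxidises the side chain and CYP7B1 hydroxylates the oxysterols that result, and BAAT joins the finished acids to taurine or glycine. ABCB11 (the bile salt export pump) pumps them into bile, SLC10A1 (NTCP) takes them back up from blood, and SLC51B is the beta subunit of the basolateral exporter OST. NR1H4 (FXR) is the bile acid receptor, and its target NR0B2 (SHP) represses Cyp7a1 and Cyp8b1.

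All 10 genes are protein coding and lie at different places of the genome (GRCm38, GENCODE vM21, whose identifiers matched those of the files). The enzymes lie at chr4:6265612-6275633 on the minus strand (Cyp7a1), chr9:121914356-121916305 minus (Cyp8b1), chr1:74713574-74737892 plus (Cyp27a1), chr3:18071950-18243338 minus (Cyp7b1) and chr4:49489422-49506557 minus (Baat). The transporters lie at chr2:69238282-69342616 minus (Abcb11), chr12:80953183-80968705 minus (Slc10a1) and chr9:65412714-65422955 minus (Slc51b), and the receptors at chr4:133553376-133556536 plus (Nr0b2) and chr10:89454234-89533585 minus (Nr1h4). Abcb11 overlaps Gm13613 and Gm13614 on the other strand and Slc51b overlaps Rasl12 on the other strand, and no strand setting of the counting was found in the sources used here, so reads of these pairs may be shared. Abcb11 also lies 6.333 Mb from Nfe2l2, the gene that was targeted, and whether its surroundings carry donor-strain DNA in Nrf2KO mice was not tested.

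The RefSeq promoter table (GRCm38.p6) matched 7 of the 10 members, with 8 windows that span 250 bases before and 50 bases after a start site. Cyp7a1, Cyp7b1 and Baat had no entry. The 250 bases before the start site are shown for 4 genes. They are Cyp27a1, the member that passed the test in the most tissues, Cyp8b1, the only member with a match to the NRF2 element core TGACNNNGC, Slc51b, the kidney member, and for comparison Abcc2, a bile acid and conjugate pump outside the members that was lower in Nrf2KO kidney. Capitals mark TGAGNNNGC, a variant of the element, in Cyp27a1, TGACNNNGC in Cyp8b1 (on the opposite strand, so it reads from right to left as its complement) and in Abcc2, and the nuclear receptor core AGGTCA in Slc51b.

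Cyp27a1 promoter, chr1:74713285-74713534 (plus strand): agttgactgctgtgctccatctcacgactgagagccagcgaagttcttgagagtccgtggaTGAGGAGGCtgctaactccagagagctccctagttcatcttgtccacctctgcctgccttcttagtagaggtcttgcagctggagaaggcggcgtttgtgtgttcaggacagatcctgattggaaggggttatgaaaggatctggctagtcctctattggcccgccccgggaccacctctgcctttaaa
Cyp8b1 promoter, chr9:121916306-121916555 (minus strand): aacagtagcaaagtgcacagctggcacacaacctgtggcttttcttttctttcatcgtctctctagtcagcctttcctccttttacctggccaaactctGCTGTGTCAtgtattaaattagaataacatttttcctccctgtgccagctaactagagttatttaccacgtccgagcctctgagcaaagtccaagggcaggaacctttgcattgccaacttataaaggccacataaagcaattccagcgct
Slc51b promoter, chr9:65422774-65423023 (minus strand): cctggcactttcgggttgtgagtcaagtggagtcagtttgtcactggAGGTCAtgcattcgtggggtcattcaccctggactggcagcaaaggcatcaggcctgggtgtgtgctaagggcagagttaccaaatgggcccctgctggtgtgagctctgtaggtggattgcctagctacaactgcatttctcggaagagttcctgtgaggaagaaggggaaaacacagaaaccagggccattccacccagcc
Abcc2 promoter, chr19:43782058-43782307 (plus strand): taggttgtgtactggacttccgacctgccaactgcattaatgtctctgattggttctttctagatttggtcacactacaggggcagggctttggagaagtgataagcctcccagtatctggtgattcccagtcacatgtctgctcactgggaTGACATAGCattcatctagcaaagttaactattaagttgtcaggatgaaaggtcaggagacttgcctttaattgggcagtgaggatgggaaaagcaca

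Both strands of the whole windows were searched for these 3 motifs, and no matches of the members overlapped each other. TGACNNNGC was found in 1 of the 7 members (Cyp8b1, 151 bases before the start site) against 12.39% of all 32851 promoters, and TGAGNNNGC in 3 (Cyp27a1 at 189 bases before, Slc10a1 and Nr1h4) against 17.65%. AGGTCA was found in 4 (Abcb11, Slc10a1, Slc51b and Nr1h4) against 16.26%. Of the 47 further bile acid genes described below, 39 had a promoter entry and 6 of these held TGACNNNGC, Abcc2 among them. These are matches of letters and not sites of binding. The window of Nr1h4, the window of Slc10a1 with the matches and the window of Slc51b start from a site inside the gene model given above, so that 182 of the 250 bases printed for Slc51b lie within the gene.

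TPM values, which are scaled for gene length and library total, give the levels of the members in each tissue. By their medians 9 of the members were highest in Liv and the other, Slc51b, in Kid. In Liv the median over the 23 mice was 382.6 TPM for Slc10a1 (297.3 to 481.9), 303.0 for Cyp27a1 (225.4 to 361.5), 264.2 for Cyp8b1 (94.76 to 632.0) and 163.8 for Baat (113.1 to 213.5). It was 133.2 TPM for Cyp7b1 (60.62 to 272.5), 110.4 for Nr1h4 (89.93 to 156.8), 104.0 for Abcb11 (54.49 to 166.5), 84.75 for Cyp7a1 (15.36 to 161.8) and 31.75 for Nr0b2 (9.12 to 52.32). The ranges of neighbours in this order overlapped in every case, so the order of the medians does not separate neighbours, and Slc51b alone stood apart at 0.16 TPM (0 to 1.86). The uptake transporter thus had the highest median in Liv, although Cyp8b1 exceeded it in 4 mice (FL07, FL08, FL10 and FL12), while Cyp7a1 and Cyp8b1 had the widest ranges, relative to their medians, among the 9 members expressed there.

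In Kid, Slc51b had a median of 75.88 TPM (60.51 to 86.89), Nr1h4 92.19 (57.53 to 130.2), Cyp7b1 73.16 (33.76 to 113.9), Cyp27a1 28.08 (24.18 to 40.26) and Nr0b2 2.205 (1.41 to 4.79). The Liv and Kid ranges overlapped for Cyp7b1 and Nr1h4 and for none of the other 8. The kidney thus had the receptor, the basolateral subunit and both enzymes of the alternative route. Cyp7a1, Cyp8b1 and Abcb11 had medians of at most 0.025 TPM there, and Baat and Slc10a1 had 0.63 and 0.485 TPM.

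Cyp27a1 was the only member with a median of 3.45 TPM or more in all 9 tissues. After Liv it was highest in eWAT (49.55 TPM) and Spl (43.16), which overlapped, and then came Kid, TpB (16.82), iBAT (16.74), MdB (11.04), Cbr (4.37) and Thy (3.45). After Liv and Kid, Cyp7b1 was highest in Cbr (7.19 TPM, 5.57 to 9.05) and lay between 0.08 and 2.99 TPM in the other 6 tissues. Slc10a1 and Cyp7a1 were listed at 0 in all 23 Cbr samples, and the bile salt export pump Abcb11 did not exceed a median of 0.09 TPM outside Liv.

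**Figure D1:**
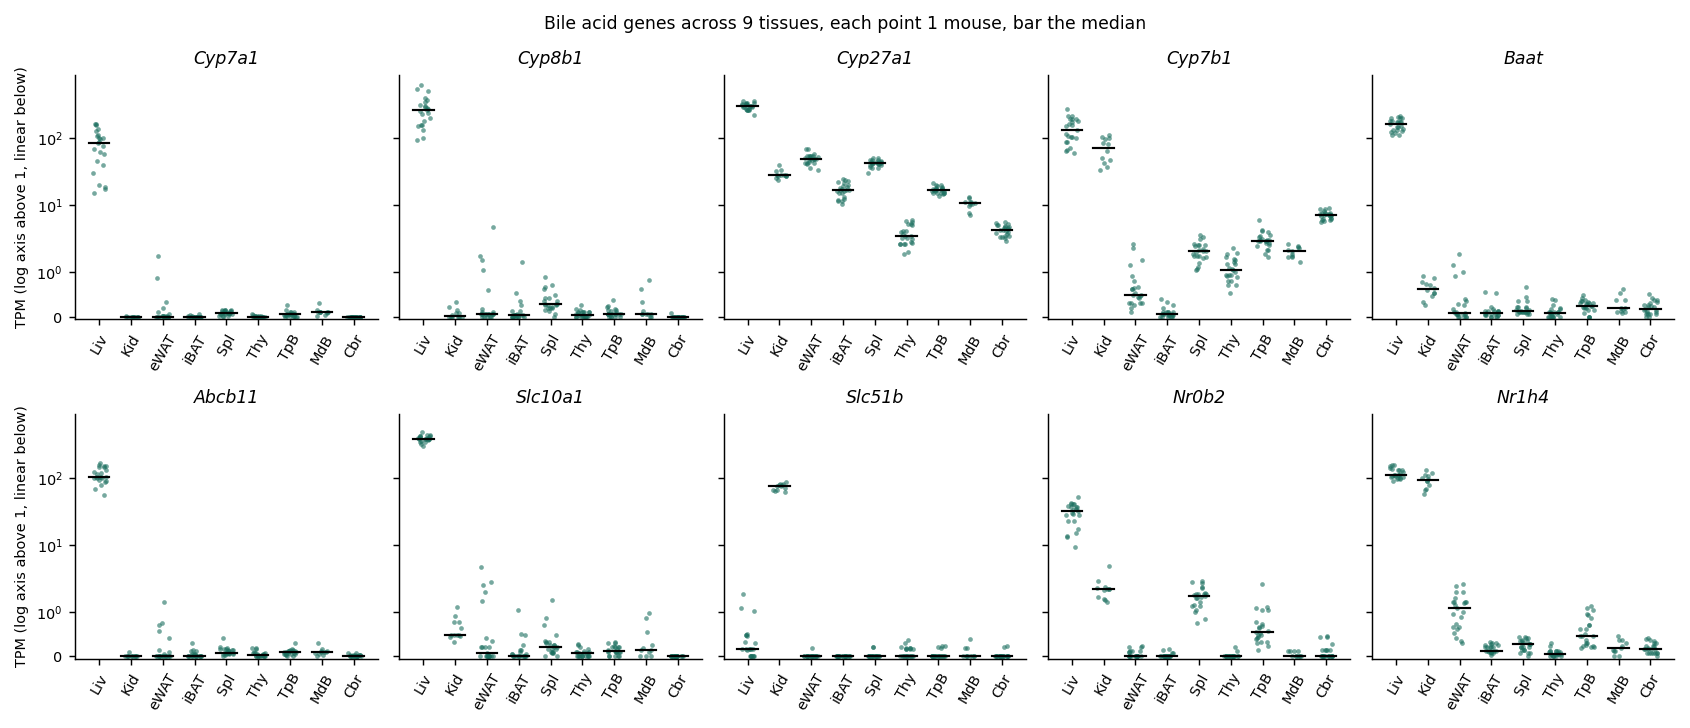
TPM of the 10 members in 9 tissues (y axis logarithmic above 1 TPM and linear below), with 1 point for each mouse and a bar at the median. Liver holds the highest median of every member except Slc51b, which reached 75.88 TPM in kidney against 0.16 TPM in liver, and Cyp27a1 is present in all tissues.

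In eWAT, and in Kid of FL11, traces of some hepatocyte genes went with albumin. In eWAT, 5 of 23 libraries (FL05, GC01, GC02, GC09 and GC10) held more than 100 TPM of Alb, the most abundant hepatocyte transcript. Those 5 had 1.43 to 4.61 TPM of Slc10a1 against 0 to 0.41 in the other 18, 0.61 to 4.82 TPM of Cyp8b1 against 0 to 0.18, and 0.42 to 1.41 TPM of Abcb11 against 0 to 0.14. In Kid, FL_KO mouse FL11 had 47.56 TPM of Alb against 3.04 to 7.47 in the other 11 mice, together with the highest Slc10a1 (1.16 TPM) and Cyp8b1 (0.33 TPM). The part of hepatocyte RNA in the values of these members outside Liv was not tested further.

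In Liv of WT mice the oxysterol hydroxylase Cyp7b1 was lower after flight, by 2.09-fold, and no other member passed the test. In Nrf2KO mice the passing member was Cyp27a1, which was 1.25-fold lower in the edgeR fit and less so on TPM, where limma did not call it (log2 difference -0.18, adjusted p = 0.139). The members called for flight in Liv were thus Cyp7b1 in WT mice and Cyp27a1 in Nrf2KO mice, both lower and in different contrasts. Cyp7a1, Cyp8b1, Baat, the transporters and the receptors did not pass. The difference of Cyp7a1 in Nrf2KO mice (-1.17, edgeR adjusted p = 0.263) was larger than that of Cyp27a1.

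Cyp7b1 in Liv lay between 106.7 and 272.5 TPM (median 186.4) in GC_WT, 60.62 and 166.2 (80.22) in FL_WT, 104.9 and 216.3 (187.2) in GC_KO, and 65.3 and 155.6 (102.4) in FL_KO. Of the flight mice, 2 of 6 in FL_WT and 2 of 5 in FL_KO lay within the range of the ground mice of their genotype, and the others lay below it. The difference FL_WT against GC_WT was -1.06 on the log2 scale (SE 0.27, edgeR adjusted p = 0.0324), so 1 of the 9 members tested was called beside 3.45% of all genes tested. FL_KO against GC_KO was -0.84 (SE 0.29, adjusted p = 0.124) and passed with the mouse number as a block (-0.79, adjusted p = 0.0403) and in no other setting. The difference between the flight responses of the genotypes was 0.22 (95% interval -0.58 to 1.03), so the data do not separate them. The WT call was lost when only the groups of the contrast entered the fit (adjusted p = 0.0559) and when any 1 of GC03, GC05, GC07, GC10, FL05, FL06, FL08 or FL10 was left out (up to 0.0901).

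Cyp27a1 in Liv, the mitochondrial sterol hydroxylase, lay between 292.1 and 359.6 TPM (median 332.1) in GC_WT, 266.6 and 361.5 (315.6) in FL_WT, 262.9 and 323.4 (308.1) in GC_KO, and 225.4 and 303.8 (267.2) in FL_KO. The FL_KO mice were lowest as a group, with ranges that overlapped all others. FL_KO against GC_KO was -0.32 (SE 0.09, edgeR adjusted p = 0.0448), which made 1 of 9 members called beside 3.34% of all genes, and FL_KO against FL_WT was likewise -0.32 (SE 0.09, adjusted p = 0.0473), 1 of 9 beside 3.65%. FL_WT against GC_WT was -0.13 (adjusted p = 0.497), and the difference of the flight responses was -0.20 (95% interval -0.45 to 0.06). With the mouse number as a block the first was -0.33 (adjusted p = 0.0271). Both calls are close to the threshold. The first was held in 4 of 9 other settings and the second in 2 of 8, and each was held in 7 of 23 fits with 1 mouse left out. The first call was held without FL02, FL03, FL06, FL08, GC08, GC09 or GC10 and the second without FL02, FL08, GC02, GC03, GC08, GC09 or GC10, and each was lost without any other mouse.

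Cyp7a1, the first enzyme of the classical route, lay between 39.66 and 161.8 TPM (median 80.41) in GC_WT, 15.36 and 110.8 (52.42) in FL_WT, 61.95 and 161.8 (119.1) in GC_KO, and 17.61 and 140.8 (30.63) in FL_KO. Both flight groups held mice below every ground mouse, but the ranges overlapped. Its log2 difference was -0.64 in WT mice (95% interval -1.62 to 0.35) and -1.17 in Nrf2KO mice (-2.23 to -0.12), where the unadjusted p was 0.0309 and the adjusted p 0.263. Cyp8b1, which directs synthesis to cholic acid, lay between 131.6 and 312.9 TPM in GC_WT, 205.4 and 632.0 in FL_WT, 102.1 and 376.4 in GC_KO, and 94.76 and 539.1 in FL_KO. Its log2 difference was 0.59 in WT mice (SE 0.34, adjusted p = 0.421) and 0.09 in Nrf2KO mice (-0.65 to 0.84). The intervals of both genes were the widest among the members in Liv.

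The conjugating enzyme and the transporters gave narrower intervals. Baat lay between 135.9 and 201.3 TPM (median 165.9) in GC_WT, 132.2 and 210.8 (166.0) in FL_WT, 113.1 and 184.4 (145.4) in GC_KO, and 119.1 and 213.5 (177.4) in FL_KO, with all ranges overlapping. It had a log2 difference of 0.02 in WT mice (95% interval -0.26 to 0.29) and 0.06 in Nrf2KO mice (-0.23 to 0.36). Slc10a1, at means of 368.7 TPM ± 39.5 (SD, n = 6) in GC_WT and 377.9 ± 19.1 (n = 6) in FL_WT, had -0.03 (-0.20 to 0.14) and -0.07 (-0.25 to 0.11). Abcb11 had -0.33 in WT mice (-0.73 to 0.07) and -0.23 in Nrf2KO mice (-0.64 to 0.19), at medians of 109.2 TPM in GC_WT (88.66 to 152.4) and 97.77 in FL_WT (77.65 to 117.1). The uptake transporter was thus the best bounded of these 3 genes.

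The receptor Nr1h4 had a mean of 103.0 TPM ± 8.35 (SD, n = 6) in GC_WT and 125.0 ± 18.8 (n = 6) in FL_WT, a log2 difference of 0.21 (95% interval 0.01 to 0.42, unadjusted p = 0.0436, adjusted p = 0.276). In Nrf2KO mice its difference was -0.01 (-0.23 to 0.20). Nr0b2, its repressor target, varied more, from 9.12 to 41.96 TPM within GC_WT alone, and its differences were 0.23 (-0.37 to 0.83) and 0.02 (-0.60 to 0.63). Neither receptor gene was called for flight.

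For loss of Nrf2 in Liv on the ground 0 of 9 members were called between GC_KO and GC_WT by edgeR, DESeq2 or limma, beside 2.64% of all genes by edgeR, and 1 of them, Nr0b2, had an unadjusted p under 0.05. Nr0b2 lay between 22.49 and 41.01 TPM in GC_KO and between 9.12 and 41.96 in GC_WT, with 1 WT mouse above all Nrf2KO mice, and the log2 difference was 0.61 (SE 0.29, adjusted p = 0.354). The other 8 had differences between -0.17 (Cyp7b1) and 0.51 (Cyp7a1, 95% interval -0.48 to 1.49). In flight only Cyp27a1 was called, as given above. For the difference of the flight responses 0 of 9 members were called by edgeR, DESeq2 or limma and 0 had an unadjusted p under 0.05, beside 0 of the 13433 genes tested.

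**Figure D2:**
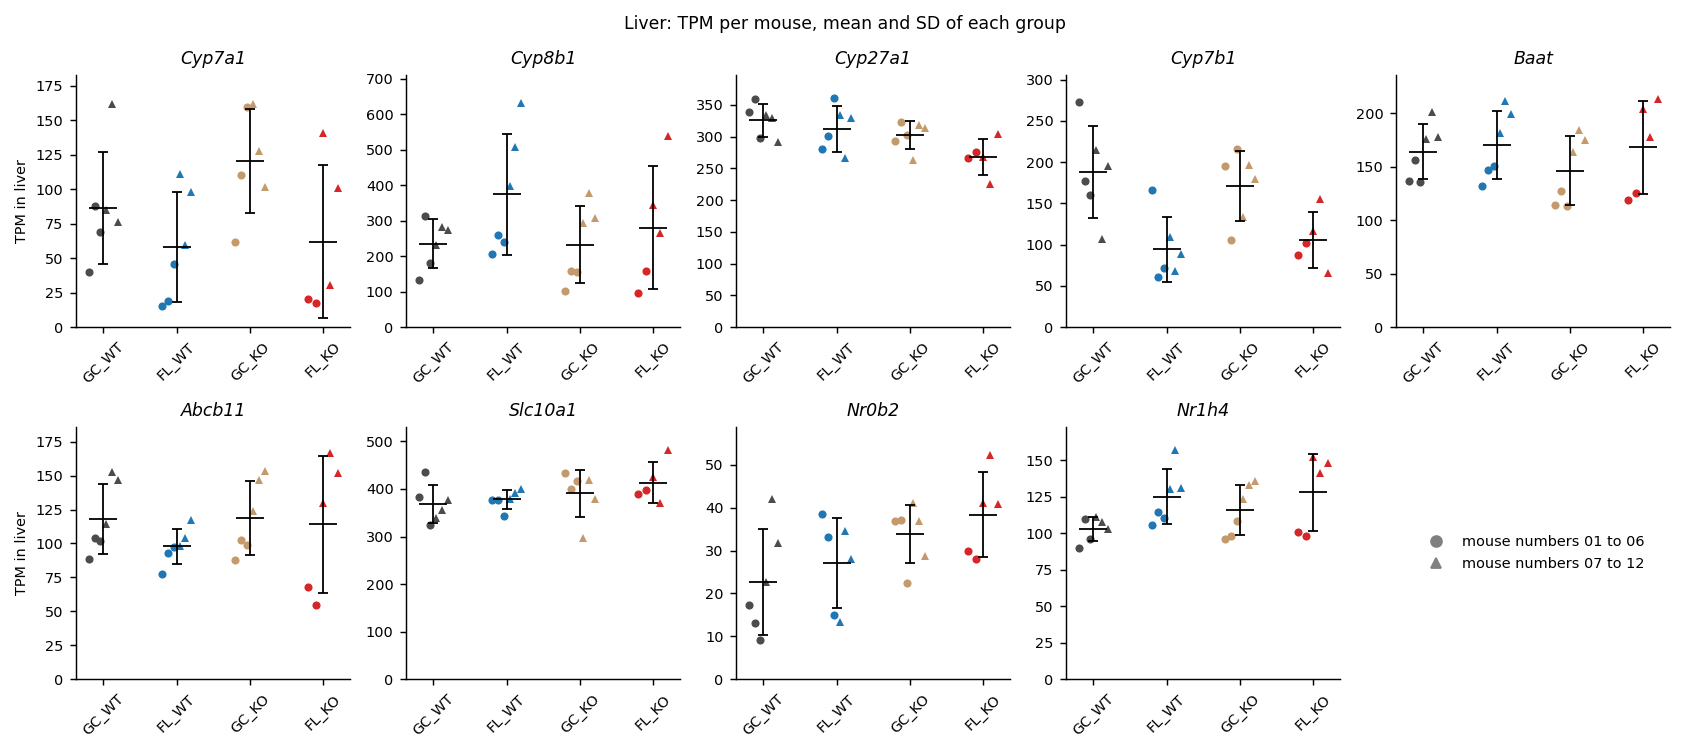
TPM in liver (y axis) of the 9 members tested there, by group (x axis), with 1 point for each mouse and the mean and SD of the group in black. Circles are mouse numbers 01 to 06 and triangles 07 to 12. Cyp7b1 is lower in both flight groups with overlapping ranges, and within each group the triangles of Baat, Cyp8b1 and Nr1h4 lie mostly above the circles.

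**Figure D3:**
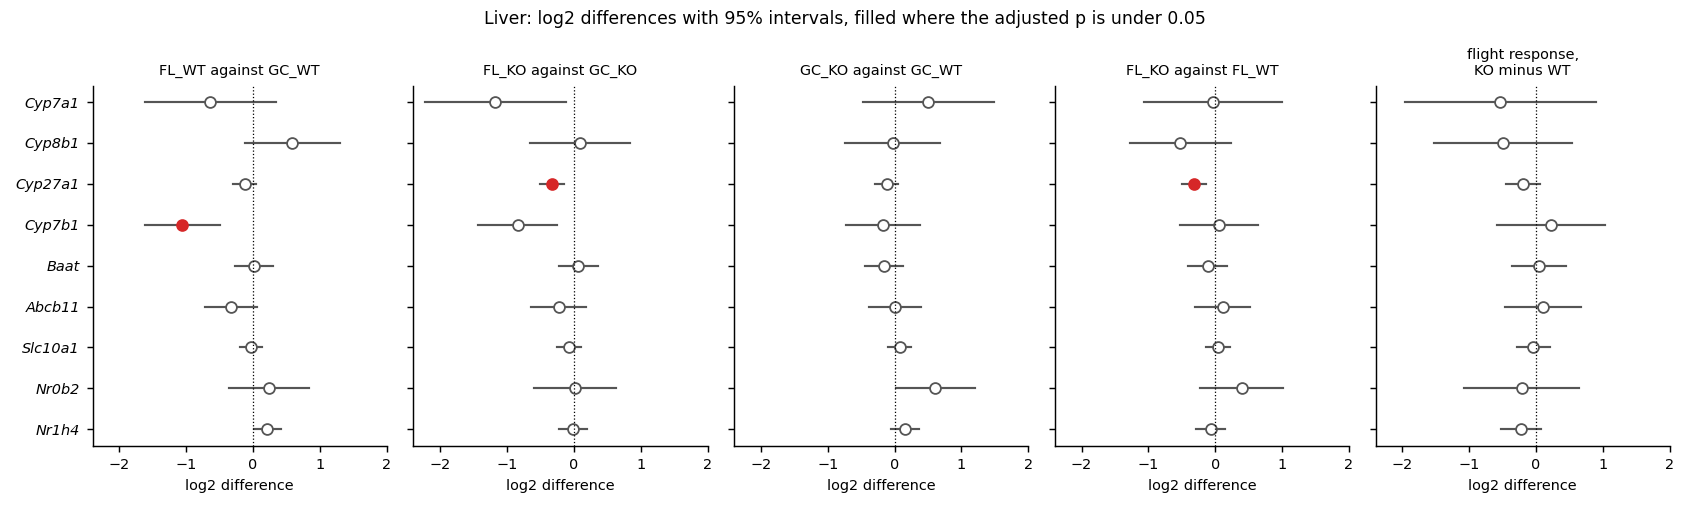
Log2 differences in liver (x axis) from edgeR for the 9 members (y axis) in 5 contrasts, with 95% intervals as lines. Filled points passed an adjusted p of 0.05: Cyp7b1 for flight in WT mice (-1.06) and Cyp27a1 for flight in Nrf2KO mice and for Nrf2KO against WT in flight (-0.32 each).

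Within the liver groups the values of some members went with the number of the mouse. How many of all genes differ with that number was not counted. The labels do not say what the numbers mark, and each group held both numbers 01 to 06 (11 mice in all) and 07 to 12 (12 mice). Baat was 132.2 TPM in the median of the first set and 183.0 in the second, with ranges of 113.1 to 155.8 and 163.8 to 213.5 that did not overlap. Cyp8b1 (158.9 and 325.3 TPM), Cyp7a1 (45.69 and 101.0), Abcb11 (92.68 and 138.4) and Nr1h4 (101.2 and 132.1) were also higher in the second set in all 4 groups. Cyp27a1 (301.2 and 308.5) and Slc10a1 (388.9 and 379.4) were nearly level. Nr0b2 (27.98 and 35.75 TPM) was higher in the second set in 3 of the 4 groups. Cyp7b1 had a lower pooled median in the second set (159.6 and 124.9 TPM) but a higher one within 3 of the 4 groups.

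Some of the 16 listed genes of the circadian clock differed with the same numbers. The repressor Nr1d1 had medians of 17.97 and 2.495 TPM in the sets 01 to 06 and 07 to 12 and Ciart 21.23 and 2.4 TPM, neither with overlap, while the activator Arntl had 6.32 and 18.23 TPM. Nr1d2 (25.91 and 7.715 TPM) and Tef (54.16 and 36.34) did not overlap either, and Per1 had 33.65 and 6.47 TPM. The pooled medians of others were nearly level, such as Per2 (27.94 and 25.15 TPM), Cry2 (19.77 and 19.18) and Hlf (21.98 and 23.19). Within the groups, however, Per2 and Cry2 had a higher median in the second set in 0 of 4, and Hlf in 3 of 4. These sets were looked at after the values were seen, so they are a description with no test, and their part in the flight comparisons was not tested beyond the values that follow.

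Within the sets the differences of Cyp7b1 had the same sign. The log2 ratio of mean TPM, FL_WT to GC_WT, was -1.03 in numbers 01 to 06 and -0.96 in 07 to 12 (3 mice against 3 in each), and FL_KO to GC_KO it was -0.86 (2 mice against 3) and -0.59 (3 against 3). For Cyp7a1 the ratios of the sets lay further apart. The FL_KO mice of numbers 01 to 06 had 17.61 and 20.05 TPM against 61.95, 110.6 and 159.7 in GC_KO, a log2 ratio of -2.56 without overlap, and in numbers 07 to 12 the ratio was -0.52 with overlap. With the number set as a term in the edgeR fit, Cyp7a1 was -1.55 (SE 0.42, adjusted p = 0.0257) for FL_KO against GC_KO and -0.82 (adjusted p = 0.202) for FL_WT against GC_WT. The first was not called in the main edgeR fit (adjusted p = 0.263) and passed in no other setting. As the term was chosen after the values were seen, no weight is placed on it. Cyp8b1 went the other way in WT mice, with 398.7, 506.9 and 632.0 TPM in FL_WT against 230.7, 274.3 and 281.9 in GC_WT of numbers 07 to 12 (log2 ratio 0.97, no overlap) and 0.17 in numbers 01 to 06.

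The 10 members sit in a larger network, and 47 further genes of bile acid synthesis, transport and regulation were listed, of which 41 were tested in Liv. After flight in WT mice 4 of the 41 were called, 2 higher and 2 lower (9 with the number set as a term and 2 without a filter on low counts), beside 3.45% of all genes, with a median log2 difference of 0.045 over the list and 0 over all genes. Lower were Cyp2c70, the mouse enzyme that makes muricholic acids (-1.15, SE 0.27, edgeR adjusted p = 0.0176), and the steroid 5-beta-reductase Akr1d1 (-0.35, adjusted p = 0.0236). Cyp2c70 had 178.7 to 283.9 TPM in FL_WT against 366.5 to 639.2 in GC_WT, without overlap. Higher were the cholesterol 24-hydroxylase Cyp46a1 (1.04, adjusted p = 0.032) and the phospholipid pump Abcb4 (0.49, adjusted p = 0.0434). Cyp2c70 was called in every fit with 1 mouse left out, and the count fell to 2 without FL05, FL08, GC05, GC07, GC08 or GC10 and to 1 without FL06.

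In Nrf2KO mice 3 of the 41 were called after flight beside 3.34% of all genes, against 5 with the mouse number as a block and 6 with the number set as a term. All 3 were higher, namely the basolateral efflux pump Abcc3 (0.99, edgeR adjusted p = 0.00284), the oxysterol 7-alpha-hydroxylase Cyp39a1 (0.72, adjusted p = 0.00993) and the receptor Nr1i3, also called CAR (0.79, adjusted p = 0.0265). Loss of Nrf2 on the ground lowered 3 (6 with the number set term), beside 2.64% of all genes, and these were Abcc3 (-2.72, adjusted p = 5.1e-10), Nr1i3 (-1.96, adjusted p = 2.79e-07) and the efflux pump Abcc4 (-1.34, adjusted p = 0.000664). Abcc3 had 9.27 to 18.99 TPM in GC_KO and 83.36 to 109.5 in GC_WT, and 21.99 to 42.96 in FL_KO and 104.2 to 134.3 in FL_WT, so that no Nrf2KO mouse reached a WT mouse. Between FL_KO and FL_WT 2 were called (6 with the number set term) beside 3.65% of all genes, Abcc3 (-2.01) and Nr1i3 (-1.48). The 3 differences that passed for loss of Nrf2 on the ground were each larger than any difference of a member in that contrast.

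Some markers of where a hepatocyte sits along the lobule differed with flight in Liv, beside Cyp7b1 and Cyp27a1. Of 7 periportal markers 4 were called lower in both genotypes, among them Ass1 (-0.83 and -1.09) and Aldh1b1 (-1.94 and -1.53), and their summed level was 2744 to 4552 TPM in FL_WT against 4925 to 7038 in GC_WT and 3067 to 4514 in FL_KO against 4695 to 7918 in GC_KO. Of 7 pericentral markers 0 were called for flight by edgeR in either genotype. Their median log2 difference was 0.272 in WT mice and -0.072 in Nrf2KO mice. Their sums, which follow the most abundant markers, did not overlap in WT mice, at 9213 to 11580 TPM in FL_WT and 4729 to 8421 in GC_WT. In Nrf2KO mice the sums were 6086 to 13550 in FL_KO and 6030 to 9285 in GC_KO. Of 5 Kupffer cell markers 3 were called lower in FL_WT (sum 26.57 to 55.88 TPM against 43.37 to 100.2) and 0 in FL_KO. The median log2 difference of the 5 was -0.871 in WT mice and -0.543 in Nrf2KO mice, where 1 marker was higher. For the difference of the flight responses 0 of the 5 were called. Hepatocyte markers summed to 71730 to 96770 TPM over all livers, with 1 of 10 (Cps1) called lower in each genotype, and none was at 0. The part of these shifts in the members' differences was not tested.

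For the called members the 3 genes whose liver pattern was most alike, by Pearson r of deviations of log2(TPM + 1) from the group means over 23 mice and 7976 genes, were Adh6-ps1 (0.825), Aadat (0.792) and Ugt2b1 (0.789) for Cyp7b1 and Cdkn1b (0.778), Sephs2 (0.776) and Plekhf2 (0.775) for Cyp27a1. Of these 6 genes Ugt2b1 and Sephs2 stayed among the first 3 with Spearman's rho and with log2 CPM, and the others did not stay in both. Among the members themselves, Cyp8b1 and Baat had r = 0.929, and 0.738 with the means of the number sets removed as well. These points share libraries and number sets, and the values are a description.

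The second tissue with several members was Kid, where loss of Nrf2 lowered Cyp7b1, on the ground by 1.95-fold and in flight by 2.43-fold, with no overlap between genotypes. No member was called for flight by edgeR, and DESeq2 called Cyp7b1 in Nrf2KO mice. The basolateral subunit Slc51b, whose level was high in Kid alone, was lower in all FL_KO mice than in all FL_WT mice without passing the test.

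Cyp7b1 in Kid had 99.31, 102.7 and 113.9 TPM in GC_WT and 48.22, 51.43 and 64.09 in GC_KO. It had 82.22, 85.92 and 104.5 TPM in FL_WT and 33.76, 37.22 and 42.33 in FL_KO. The 6 Nrf2KO mice thus all lay below the 6 WT mice. The log2 difference GC_KO against GC_WT was -0.96 (SE 0.11, edgeR adjusted p = 0.000359), 1 of 7 members tested beside 1.61% of all genes. FL_KO against FL_WT was -1.28 (SE 0.11, adjusted p = 2.98e-05), 1 of 7 beside 1.83%. Both calls were made in all 7 other settings and in all 12 fits with 1 mouse left out, over which the first ranged from -1.07 to -0.89 and the second from -1.36 to -1.17.

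For flight in Kid 0 of 7 members were called by edgeR in WT mice (beside 0.119% of all genes) and 0 in Nrf2KO mice (0.159%). Unadjusted p-values were under 0.05 for 1 member in WT mice (Cyp7b1) and 3 in Nrf2KO mice (Cyp7b1, Slc51b and Nr0b2). DESeq2 called 0 and 1. Limma, whose TPM filter kept 4 of the members, called 0 and 0. Cyp7b1 had a log2 difference of -0.29 in WT mice (95% interval -0.53 to -0.05, adjusted p = 0.606) and -0.60 in Nrf2KO mice (-0.85 to -0.36, adjusted p = 0.073), in which every flight mouse lay below every ground mouse. The second passed with DESeq2 (adjusted p = 0.000257), without a filter on low counts (0.00351) and without FL11 (0.0276), the mouse with the high Alb. The difference of the flight responses was -0.32 (-0.66 to 0.03) for Cyp7b1. In that contrast 0 of 7 members were called by edgeR or DESeq2 and 0 of 4 by limma. EdgeR called 0% of all genes there, and 0 members had an unadjusted p under 0.05.

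Slc51b in Kid had 75.41, 76.36 and 81.81 TPM in GC_WT, 79.05, 80.24 and 86.89 in FL_WT, 65.98, 70.68 and 77.95 in GC_KO, and 60.51, 63.52 and 66.61 in FL_KO. The genotypes did not overlap in flight and overlapped on the ground. FL_KO against FL_WT was -0.38 (SE 0.09, adjusted p = 0.059), and it passed with DESeq2 (0.0245), with limma on log2(TPM + 1) (0.03), without a filter on low counts (0.0478) and with the number set as a term (0.0478), as well as without GC11 or GC12. GC_KO against GC_WT was -0.13 (95% interval -0.33 to 0.06), and the difference of the flight responses was -0.24 (-0.52 to 0.03). Its partner Slc51a was not called in Kid.

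The bile acid receptor Nr1h4 in Kid had 57.53, 68.46 and 94.49 TPM in GC_WT, 64.85, 76.88 and 117.7 in FL_WT, 89.61, 89.88 and 98.17 in GC_KO, and 107.1, 108.1 and 130.2 in FL_KO. WT and Nrf2KO mice overlapped in both conditions, and the log2 difference was 0.32 on the ground (95% interval -0.15 to 0.79) and 0.40 in flight (-0.07 to 0.87). Nr0b2 had 1.41, 1.49 and 2.13 TPM in GC_WT and 2.3, 2.91 and 4.79 in GC_KO, without overlap. Its difference was 0.98 on the ground (SE 0.30, adjusted p = 0.188) and 0.30 in flight (adjusted p = 0.741). Cyp27a1 had differences between -0.20 and 0.16 in the 4 contrasts and stayed within 24.18 to 40.26 TPM. Baat, at most 0.92 TPM in Kid, had -0.75 on the ground (95% interval -1.58 to 0.08), and Slc10a1, at most 1.16 TPM, had 0.58 (-0.37 to 1.53).

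**Figure D4:**
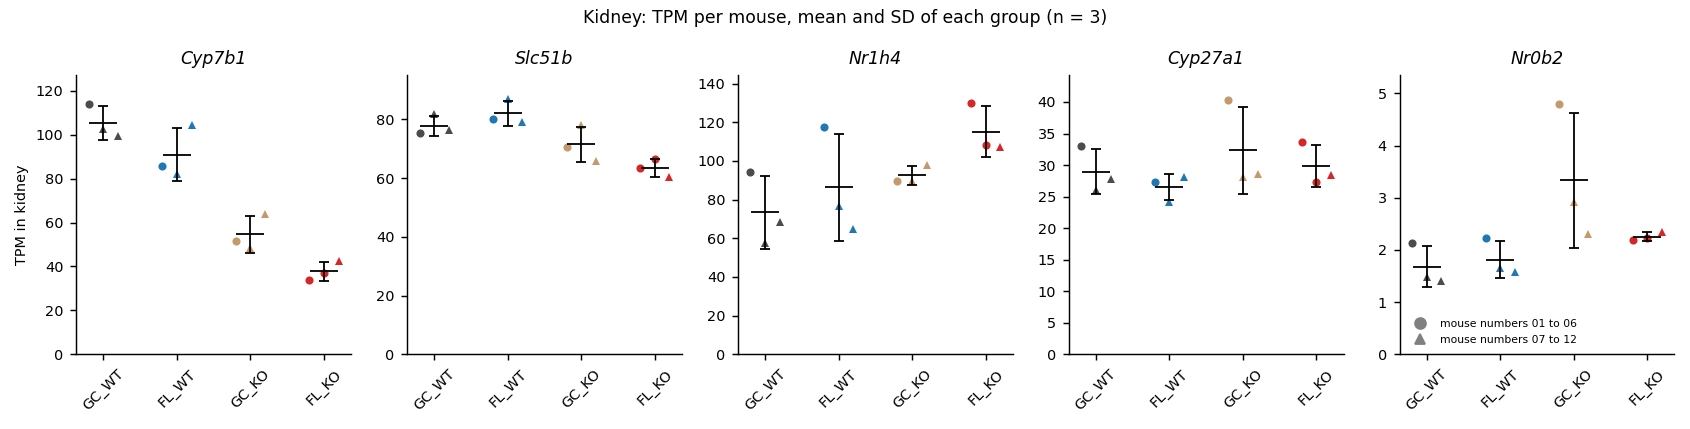
TPM in kidney (y axis) of 5 members by group (x axis), with 1 point for each of 3 mice and the mean and SD of the group in black. Circles are mouse numbers 01 to 06 and triangles 07 to 12. Cyp7b1 lies between 33.76 and 64.09 TPM in the Nrf2KO mice and between 82.22 and 113.9 TPM in the WT mice.

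Of the 47 further bile acid genes 32 were tested in Kid, and 0 were called for flight by edgeR in WT mice (beside 0.119% of all genes) or Nrf2KO mice (0.159%). Loss of Nrf2 lowered 2 on the ground (beside 1.61% of all genes) and 3 in flight (1.83%). These were the pumps Abcc2 (-0.70, edgeR adjusted p = 0.00103) and Abcc4 (-1.01, adjusted p = 0.00243) on the ground and Abcc2 (-0.72), Abcc4 (-0.92) and the peroxisomal oxidase Acox2 (-0.45, adjusted p = 0.038) in flight. Abcc2 had 37.87 to 45.41 TPM in GC_KO against 58.72 to 69.23 in GC_WT, and 45.55 to 48.17 in FL_KO against 68.59 to 79.95 in FL_WT.

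Proximal tubule markers were lower with loss of Nrf2 as well in 2 of 6 cases, the urate transporter Slc22a12 (-1.72 on the ground and -1.65 in flight) and the anion transporter Slc22a6 (-0.51 and -0.49). The summed level of the 6 was 3450 to 3906 TPM in Nrf2KO mice and 4331 to 4944 in WT mice, and none was at 0. Much of that gap was Slc22a12, with means of 331.4 TPM in GC_KO against 1084 in GC_WT and 327.7 in FL_KO against 1015 in FL_WT. The other markers were not called. The median log2 difference of the 6 was -0.178 on the ground, where 1 was higher in Nrf2KO mice. It was -0.182 in flight, where 0 were higher. On the ground Slc34a1 had means of 2580 TPM in GC_KO and 2610 in GC_WT, and Slc5a2 had 269.1 and 248.8. Lrp2 had 221.7 and 239.2 TPM, and Cubn 56.34 and 65.54. The part of a change in proximal tubule cells in the Cyp7b1 difference was not tested.

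Over the other 7 tissues 19 pairs of a member and a tissue passed the filter on low counts, and 3 results were called, all for Cyp27a1 and all higher: in iBAT for flight in WT mice, in iBAT for loss of Nrf2 on the ground, and in Thy for flight in Nrf2KO mice. Cyp27a1 was thus lower in Liv and higher in iBAT and Thy in its called contrasts, which were not the same in each tissue. For FL_KO against GC_KO, called lower in Liv and higher in Thy, it had -0.18 in iBAT without passing.

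Cyp27a1 in iBAT lay between 10.43 and 16.78 TPM (median 12.21) in GC_WT, 16.72 and 24.61 (21.18) in FL_WT, 12.17 and 20.29 (16.43) in GC_KO, and 15.52 and 23.11 (18.71) in FL_KO. The WT ranges touched, with the lowest FL_WT mouse just under the highest GC_WT mouse. FL_WT against GC_WT was 0.40 on the log2 scale (SE 0.10, edgeR adjusted p = 0.00598), where 19.2% of all genes were called. GC_KO against GC_WT was 0.43 (SE 0.10, adjusted p = 0.0199), where 2.14% of all genes were called, and this was not called by limma (adjusted p = 0.143). FL_KO against GC_KO was -0.18 (adjusted p = 0.193), and the difference of the flight responses was -0.57 (SE 0.14, unadjusted p = 0.000489, adjusted p = 0.134), which DESeq2 called (adjusted p = 0.0124).

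On TPM in iBAT, the median of all genes was higher in flight by 0.31 in WT mice and 0.43 in Nrf2KO mice (log2), and Cyp27a1 was 0.67 and 0.25 higher. Relative to that median it was 0.36 higher in WT mice and fell by 0.18 in Nrf2KO mice without passing, so its sign in Nrf2KO mice depends on the scale.

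Cyp27a1 in Thy lay between 1.86 and 3.81 TPM (median 3.03) in GC_WT, 3.19 and 6.16 (4.55) in FL_WT, 2.01 and 3.45 (2.675) in GC_KO, and 4.11 and 5.8 (5.24) in FL_KO. The Nrf2KO groups did not overlap and the WT groups did. FL_KO against GC_KO was 0.60 (SE 0.18, edgeR adjusted p = 0.0103), in a contrast where 38.2% of all genes were called. FL_WT against GC_WT was 0.40 (SE 0.17, adjusted p = 0.0887), and the difference of the flight responses was 0.20 (95% interval -0.31 to 0.70).

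**Figure D5:**
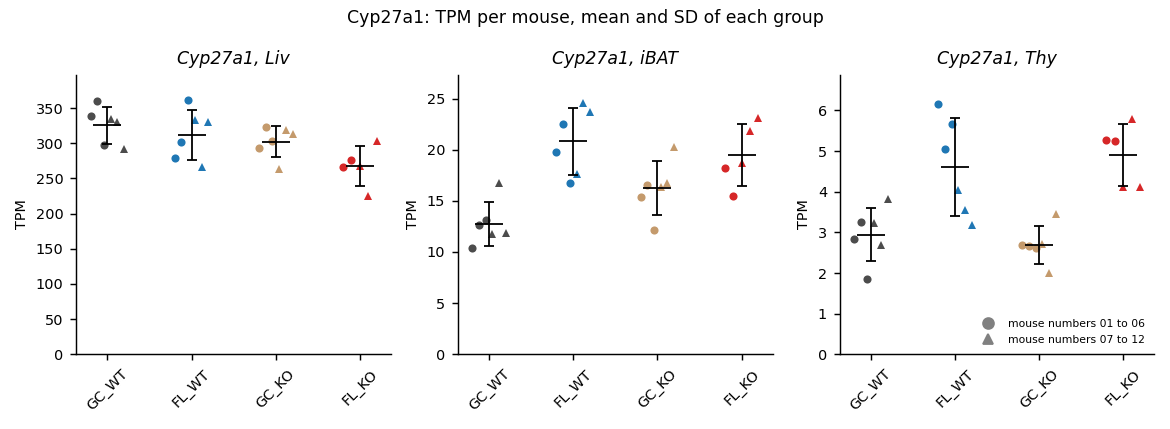
TPM of Cyp27a1 (y axis) in liver, iBAT and thymus by group (x axis), with 1 point for each mouse and the mean and SD of the group in black. Circles are mouse numbers 01 to 06 and triangles 07 to 12. In thymus the FL_KO mice (4.11 to 5.8 TPM) all lie above the GC_KO mice (2.01 to 3.45 TPM), while in liver the FL_KO mice are lowest as a group.

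The other members outside Liv and Kid gave no call. Cyp7b1 in Thy had a log2 difference of 0.48 for FL_WT against GC_WT (SE 0.19, adjusted p = 0.0615) and -0.54 for FL_KO against FL_WT (SE 0.20, adjusted p = 0.132), and both passed when FL09 was left out. Nr1h4 in eWAT had 0.52 to 0.96 TPM in FL_KO and 1.28 to 2.61 in GC_KO, without overlap, and a log2 difference of -1.22 (SE 0.40, adjusted p = 0.0649) where 7.71% of all genes were called. It passed with DESeq2 (adjusted p = 0.0312), with the mouse number as a block (0.0381), with the number set as a term (0.0355) and with the contrast's groups alone (0.0159). The highest GC_KO values, 2.61 and 2.42 TPM, came from GC09 and GC01, which are among the libraries with over 100 TPM of Alb. GC02, also among them, had 1.41 TPM of Nr1h4. GC04, GC11 and GC12, with 14.91, 17.76 and 20.97 TPM of Alb, had 1.4, 1.28 and 1.41 TPM of Nr1h4. The part of hepatocyte RNA in the Nr1h4 difference was not tested. Nr0b2 in Spl had 0.75 to 1.64 TPM in FL_KO and 1.7 to 2.76 in GC_KO, also without overlap, and a difference of -0.81 (adjusted p = 0.172) where 0.668% were called. Abcb11 and Slc10a1 in eWAT had fitted log2 differences, -3.97 and -3.89, for FL_KO against GC_KO with 95% intervals of -7.33 to -0.61 and -7.18 to -0.59, at levels of at most 1.41 and 4.61 TPM that went with Alb as described.

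For FL_KO against FL_WT 0 of the 19 pairs were called by edgeR or DESeq2, with 3 at an unadjusted p under 0.05 in edgeR. Limma, whose TPM filter kept 6 of the pairs, called 0 of those. For the difference of the flight responses edgeR called 0 of 19, with 2 at an unadjusted p under 0.05 (Cyp27a1 in iBAT and Nr0b2 in Spl). DESeq2 called 1 of 19 there and limma 0 of 6. The shares of all genes called, against which these counts stand, are given for FL_WT against GC_WT, FL_KO against GC_KO, GC_KO against GC_WT and FL_KO against FL_WT in that order, and for the difference of the flight responses 0.0% of genes was called in every tissue.

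In eWAT 0 of 5 members were called in any contrast by edgeR, where 13.4%, 7.71%, 2.74% and 1.06% of all genes were. Cyp27a1 in eWAT lay between 47.96 and 69.49 TPM in GC_KO and 33.5 and 48.91 in GC_WT, with a log2 difference of 0.28 (SE 0.10, adjusted p = 0.166) that limma called on log2(TPM + 1) (0.38, adjusted p = 0.0455), and FL_KO against FL_WT was 0.28 (adjusted p = 0.281). In iBAT the 1 member tested, Cyp27a1, was called in 2 contrasts where the shares were 19.2%, 33.5%, 2.14% and 1.5%. In Thy 1 of 2 members was called in 1 contrast, with shares of 22.8%, 38.2%, 3.81% and 2.64%. Spl, with 3 members tested (Cyp27a1, Cyp7b1 and Nr0b2), gave no call where the shares were 2.26%, 0.668%, 1.13% and 1.16%.

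Bone and brain gave no call either, with few calls over all genes. For the 3 members tested in TpB (Cyp27a1, Cyp7b1 and Nr1h4) the shares were 0.0%, 0.0%, 0.198% and 0.203%, and for the 3 in MdB (Cyp27a1, Cyp7b1 and Slc10a1) 0.0%, 0.0%, 0.244% and 0.208%. For Cyp27a1 and Cyp7b1 in Cbr they were 0.0244%, 0.0061%, 0.836% and 0.531%.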

How the data were processed

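Poly(A) RNA (total RNA depleted of ribosomal RNA in Thy) was sequenced with a strand-specific kit as single reads. Per the labels and the study's methods, the authors aligned reads to mm10 with STAR 2.6.1 and quantified genes with RSEM 1.3.1, and they deposited expected counts and TPM per gene (192 FPKM columns were not used). The strand setting was not given in the sources used here. Library totals (in the report) set the precision of low genes. Expected counts were rounded and tested in each tissue with edgeR 4.0.16 (filterByExpr, TMM, quasi-likelihood F test, 4 groups in 1 model, Benjamini-Hochberg over all genes, 0.05), in R 4.3.3. SE is the log2 difference over the square root of F, and 95% intervals use the moderated degrees of freedom. Fold differences are from the fit, and levels are TPM.

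Groups came from the labels, and the 8 libraries of FL04 were left out. The alternatives were DESeq2 1.42.0, its size factors in edgeR, limma 3.58.1 on log2(TPM + 1) and log2(TPM + 0.1) for genes with a mean of 5 TPM in a group, FL04 kept in the fit, a fit of the contrast's groups alone, all genes kept whatever their count, the mouse number as a block, single mice left out, and, chosen after seeing the data, mouse numbers 01 to 06 against 07 to 12 as a term. The comparison of both number sets was also chosen after seeing the data. Same-numbered flight and ground mice were different animals. In Liv of Nrf2KO mice the 5 same-numbered pairs had r of 0.202 to 0.338, and the blocked value is given there. All pairs were also positive in Liv of WT mice (0.015 to 0.301) and in iBAT (0.05 to 0.272) and Spl (0.009 to 0.163) of Nrf2KO mice. The own number gave the highest r in 2 of the 5 Liv pairs, so the block is an alternative fit and no evidence of pairing. The test was checked on simulated data. The text names all members and, of the 47 further bile acid genes and the markers, those that passed the test or are given as examples. The members and lists were chosen with earlier results of these data known. The replicates were separate mice. Symbols used by more than 1 gene numbered 93, and 0 members were among them.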

Additional observations from a re-analysis of the deposited data

Results flagged for a closer look

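Of 100 sets of 5 or 6 mice from 1 tissue and group, 9 held a mouse whose TPM stood apart from the rest by Dixon's test, where chance gives about 5%. In eWAT these were GC01 for Cyp27a1 in GC_KO (69.49 TPM against 47.96 to 55.48 in the others), FL05 for Cyp7b1 in FL_WT (1.53 against 0.27 to 0.63), and libraries with traces of hepatocyte transporters. Abcb11 was 0.57 TPM in FL05 of FL_WT (0 to 0.05 in the others), 0.7 in GC10 of GC_WT (0 to 0.14) and 0.1 in FL11 of FL_KO (0 to 0.02). Slc10a1 was 2.8 TPM in FL05 (0 to 0.22), 1.96 in GC10 (0 to 0.41) and 0.34 in FL01 of FL_KO (0 to 0.07). FL05, GC01 and GC10 are among the 5 eWAT libraries with over 100 TPM of Alb. In TpB, Cyp7b1 was 5.97 TPM in GC01 of GC_KO (2.13 to 2.99 in the others).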

How the results depend on the processing

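Of the members called in Liv for flight in WT mice (1), the count fell to 0 with only the contrast's groups. For FL_KO against GC_KO in Liv (1) it was 0 with FL04 included, both limma fits, no filter and only the contrast's groups, and 2 with the number set as a term. With the mouse number as a replicate block it was 2 as well. For FL_KO against FL_WT in Liv (1) it was 0 with FL04 included, DESeq2's size factors, both limma fits, no filter and only the contrast's groups. In Kid the count for FL_KO against GC_KO (0) became 1 with DESeq2 and no filter, and for FL_KO against FL_WT (1) it became 2 with DESeq2, both limma fits, no filter and the number set term. In the other 7 tissues it became 2 for flight in WT mice (1) with no filter. For FL_KO against GC_KO (1) it was 2 with DESeq2, the number set term, only the contrast's groups, the block and no filter, and 0 with both limma fits, in which Cyp27a1 in Thy fell below the TPM filter. For the difference of the flight responses (0) it was 1 with DESeq2. Of the further genes in Liv, 9 were called with the number set term and 2 with no filter for flight in WT mice (4), 6 with the term and both limma fits and 5 with the block for FL_KO against GC_KO (3), and 6 with the term for GC_KO against GC_WT (3) and for FL_KO against FL_WT (2). The causes were not tested.

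With single mice left out, the member counts ranged from 0 to 1 in Liv for FL_WT against GC_WT, FL_KO against GC_KO and FL_KO against FL_WT, from 0 to 1 for FL_KO against GC_KO and 1 to 2 for FL_KO against FL_WT in Kid, and from 1 to 2 for FL_WT against GC_WT and 0 to 1 for FL_KO against FL_WT in the other 7 tissues. The counts of further genes ranged from 1 to 5, 2 to 4, 3 to 4 and 2 to 3 in the 4 contrasts in Liv. In the other 7 tissues only FL_KO mice were left out in turn, except in MdB, where every mouse was. Without FL09, Cyp7b1 in Thy was called for FL_WT against GC_WT and for FL_KO against FL_WT. No called value changed direction. Of 83 single results, differences that were not called changed sign 78 times with a mouse left out and 31 times otherwise, the largest of them 0.29. Outside Liv of Nrf2KO mice the r of same-numbered pairs ran from -0.481 to 0.726, and the block changed no other call of a member than those given.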

Other observations

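The ratio of Cyp8b1 to Cyp7a1 TPM in Liv, looked at after the values were seen and given with no test, was 1.743 to 3.606 in GC_WT, 3.598 to 13.9 in FL_WT, 0.9654 to 3.016 in GC_KO and 2.447 to 8.89 in FL_KO. It was highest in FL_WT, whose range touched that of GC_WT. The mouse left out, FL04, had 9.88 TPM of Cyp7a1 in Liv, below the other 23 mice.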
